A study of Mus musculus and Homo sapiens with 20 samples.

Results

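The sites described here are stretches of the human genome that carried monoubiquitinated Lys119 of histone H2A (H2AK119ub) in K562 cells after knockdown (KD) of MBD6 and had no H2AK119ub peak nearby in control cells. They were chosen by their peaks: an autosomal hg38 interval had to be covered in the peak lists of both siMBD6 replicates over 1 kb or more, with no peak of either siControl replicate within 2 kb. Of 36557 autosomal intervals of 1 kb or wider that both siMBD6 lists covered, 143 (0.391%) met the rule, and together they spanned 188.3 kb. The same rule with the groups exchanged found 2 lost sites among 24796 intervals of the siControl lists (0.00807%). Because presence in one group and absence in the other selected the sites, the gain itself is a description and was not tested.

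H2AK119ub is written by Polycomb repressive complex 1 (PRC1), in which RING1A or RING1B is the ubiquitin ligase, and is best known from silent, CpG-rich promoters of developmental genes, although broad low levels also spread over gene bodies and intergenic chromatin. The mark is erased by the Polycomb repressive deubiquitinase (PR-DUB), made of the enzyme BAP1 and an ASXL scaffold. MBD6 has a methyl-CpG-binding domain and associates with PR-DUB. The study states that MBD6 does not bind DNA and reports that it prefers RNA with methylated cytosine. The comparison asks where the mark appears once MBD6 is reduced.

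K562 is an established human leukaemia line that carries the BCR-ABL1 fusion. The groups are K562 cells given a control siRNA (siControl, n = 2) and K562 cells given siMBD6 (n = 2), introduced by nucleofection and profiled by CUT&Tag with 1 H2AK119ub antibody. The labels give puromycin in the medium of K562 cells, whereas the study's methods give it for lines with a stable hairpin. The labels name no TET2 genotype for these 4 samples, but the study's own sample list places its K562 siMBD6 H2AK119ub samples in TET2-knockout cells, with control samples in both wild-type and TET2-knockout cells. The sources used here disagree, and if the groups differed in TET2 genotype, its effect and that of the KD cannot be told apart. The study lists both a pool and a single siRNA against MBD6 without saying which was used here, the time after nucleofection is not given, and no transcripts were measured in these samples, so the extent of the KD could not be checked. Nothing in the labels says whether the replicates were separate cultures. The other 16 of the 20 samples are mouse embryonic stem (mES) cells and mouse LK cells, a bone marrow fraction (Lin- c-Kit+), with wild-type or knockout Tet2, and serve here only for a comparison of the same genes.

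The 4 K562 lists held 91721 and 91776 peaks in the siControl replicates and 107166 and 110860 in the siMBD6 replicates, and covered 130.9, 130.8, 175.6 and 188.0 Mb of the autosomes, respectively. Read depth and signal are not in the lists, so a site without a siControl peak may have had signal below the calling threshold. In every list the widest nuclear peak, 167.3 to 187.2 kb, lay on chromosome 9 between 130939476 and 131126682, in the region of the ABL1 end of the fusion that K562 cells are known to carry in extra copies.

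Most of the bases newly under peaks were close to peaks that control cells already had. In all, 22.3 Mb of the autosomes was covered in both siMBD6 lists and in neither siControl list, against 1.78 Mb in the opposite direction. Of the gained bases, 85.6% lay within 2 kb of a siControl peak and 0.844% lay in the 143 new sites. The share of all autosomal bases within 2 kb of a siControl peak was not counted, so the 85.6% has no background beside it. Counted by interval, 36032 of the 36557 (98.6%) overlapped a siControl peak, and a further 382 did not overlap one but lay within 2 kb of one. These 382 near gains are used below as the closest comparison, together with 22832 intervals of 1 kb or wider covered in all 4 lists and with 2214950 windows of 1244 bp laid end to end along the autosomes.

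To show what the sites look like in sequence, 200 bases are printed for 7 of them, read from the plus strand of hg38, 5′ to 3′, with each CpG dinucleotide in capitals. In each site the stretch with the most CpGs and no annotated untranslated base was taken. The first 4 are from sites at promoters, taken as 1 kb on each side of a coding gene's start. They include sites rich in CpG and one of the poorest. The PACSIN2, BRAT1 and CLEC19A stretches lie downstream of the start, inside the gene, and the CLEC19A stretch begins in coding sequence.
PACSIN2 promoter, chr22:43014812-43015011: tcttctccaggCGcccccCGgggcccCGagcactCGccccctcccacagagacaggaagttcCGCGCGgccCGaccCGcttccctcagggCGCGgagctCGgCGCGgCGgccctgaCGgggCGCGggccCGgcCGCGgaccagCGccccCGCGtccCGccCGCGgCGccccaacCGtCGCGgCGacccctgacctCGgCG
BRAT1 promoter, chr7:2555281-2555480: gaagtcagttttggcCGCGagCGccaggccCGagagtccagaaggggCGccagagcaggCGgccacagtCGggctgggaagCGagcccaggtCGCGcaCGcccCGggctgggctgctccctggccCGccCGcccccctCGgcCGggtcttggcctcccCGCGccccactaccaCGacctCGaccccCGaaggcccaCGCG
MPI promoter, chr15:74889777-74889976: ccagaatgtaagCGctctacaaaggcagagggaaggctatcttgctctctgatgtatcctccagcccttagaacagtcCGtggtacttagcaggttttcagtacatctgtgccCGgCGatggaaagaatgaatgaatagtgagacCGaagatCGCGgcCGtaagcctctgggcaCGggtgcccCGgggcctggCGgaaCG
CLEC19A promoter, chr16:19285852-19286051: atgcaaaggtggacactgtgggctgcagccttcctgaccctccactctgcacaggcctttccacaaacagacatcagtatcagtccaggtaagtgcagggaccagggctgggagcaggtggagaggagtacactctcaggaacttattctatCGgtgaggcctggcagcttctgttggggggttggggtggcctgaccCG
The next 3 are the widest site, the site with the fewest CpGs per kb, and the site farthest from any siControl peak.
BCAR3, chr1:93608406-93608605: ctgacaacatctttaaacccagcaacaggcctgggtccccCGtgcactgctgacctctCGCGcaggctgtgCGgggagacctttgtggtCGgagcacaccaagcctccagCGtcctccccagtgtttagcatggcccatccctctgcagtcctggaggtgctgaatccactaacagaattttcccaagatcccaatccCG
BMP6 intron, chr6:7794585-7794784: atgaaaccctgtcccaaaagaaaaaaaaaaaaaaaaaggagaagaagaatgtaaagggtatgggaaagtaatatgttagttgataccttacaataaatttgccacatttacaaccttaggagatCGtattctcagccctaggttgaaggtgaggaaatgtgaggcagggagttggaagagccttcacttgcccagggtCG
intergenic, nearest coding start KIF16B, chr20:16637964-16638163: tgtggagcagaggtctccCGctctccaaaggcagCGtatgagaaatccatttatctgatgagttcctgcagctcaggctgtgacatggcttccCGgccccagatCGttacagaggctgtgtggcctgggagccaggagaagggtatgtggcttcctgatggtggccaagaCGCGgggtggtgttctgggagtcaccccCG

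These stretches show the range. The PACSIN2 stretch held 34 CpGs and 81.5% GC, and that at BRAT1 23 CpGs and 76% GC. The CLEC19A stretch held 2 CpGs at 58% GC and the BMP6 stretch 2 at 40% GC. The BCAR3 and intergenic stretches held 7 each.

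The sites were small. Their width ran from 1000 to 2458 bp with a median of 1244 bp, 27 were 1.5 kb or wider and 6 were 2 kb or wider. The single peaks behind them had a median width of 1409 bp in siMBD6 replicate 1 (1013 to 3811 bp) and 1461 bp in replicate 2 (1018 to 2977 bp), and the replicate 2 peak was the wider one at 79 of 143 sites. The nearest siControl peak was a median of 4507 bp away in replicate 1 and 5811 bp in replicate 2. Taking the closer of the replicates at each site, 49 sites were over 5 kb, 22 over 10 kb and 5 over 50 kb from any siControl peak, as the plot of width against distance shows. At the width limit, the narrowest sites measured 1000, 1004 and 1006 bp and the widest candidates left out measured 997, 997 and 996 bp, in CRYBB2, SSUH2 and ABCC2. At the distance limit, the closest sites lay 2025, 2028 and 2042 bp from a siControl peak, and the farthest left out lay 1998, 1994 and 1978 bp from one.

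**Figure D1:**
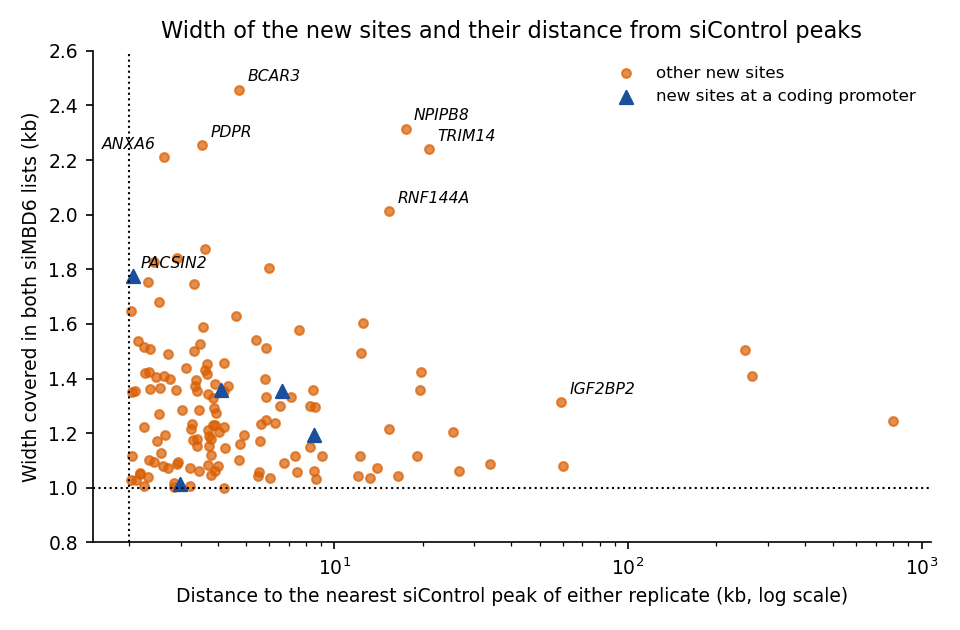
Width covered in both siMBD6 lists (kb) against distance to the nearest siControl peak of either replicate (kb, log scale) for the 143 new sites, with blue triangles for the 5 sites at a protein-coding promoter and dotted lines at the 1-kb and 2-kb limits. Most sites crowd near both limits, and the 6 sites of 2 kb or wider lie between 2632 and 20944 bp from a siControl peak.

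The count rests on every library, since leaving any of them out relaxes the rule. With siControl replicate 1 or 2 left out it rose to 726 or 750 sites, and with siMBD6 replicate 1 or 2 left out it rose to 1012 or 771, while the lost sites numbered 46, 48, 5 and 8, respectively. With the minimum lowered to the commonest peak width there were 2405 new and 72 lost sites. Around the sites, peaks of all 4 libraries returned: within 10 kb on each side, a median of 1152 and 1041 bases lay under siControl peaks, and 3461 and 3971 bases, the site included, under siMBD6 peaks. In siControl replicates 1 and 2, 34 and 38 sites had no base under a peak in that range.

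**Figure D2:**
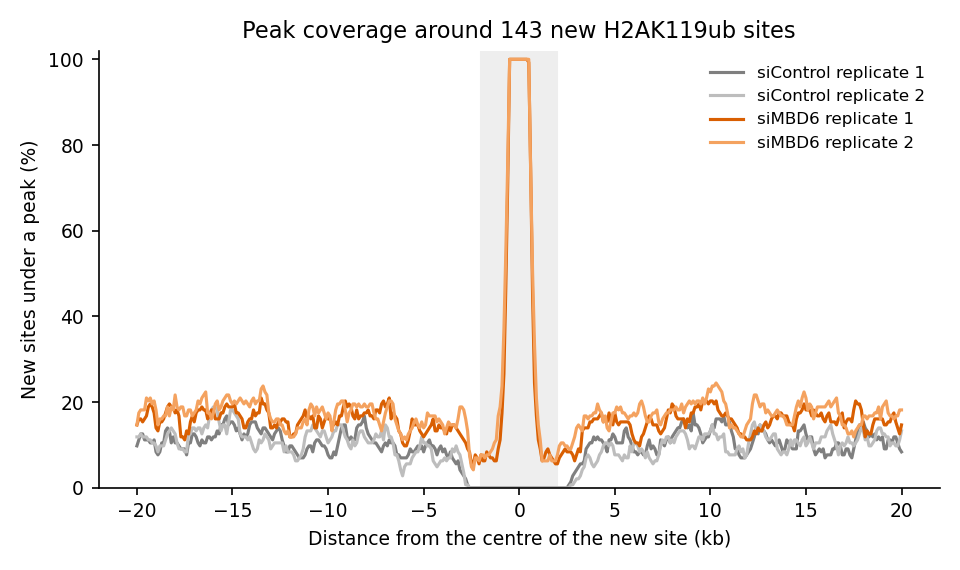
Share of the 143 new sites under a peak (%) against distance from the site's centre (kb), 1 line per library, with the 2-kb zone on each side of the centre in grey. The 2 siMBD6 lines reach 100% at the centre and the siControl lines are at 0 there because the rule requires it, and away from the centre beyond 3 kb the lines lie between 2.10 and 24.5%.

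Few of the sites were at promoters. A promoter was taken to reach 1 kb upstream and downstream of where a protein-coding gene starts, and 5 sites (3.50%, 95% exact binomial interval 1.14 to 7.97%) touched one, covering part of the promoters of 6 genes among 19111 tested (0.0314%). By rank of annotation, 18 sites (12.6%) touched a coding-gene exon away from promoters, 55 (38.5%) lay in introns, 19 (13.3%) in lncRNA genes and 46 (32.2%, 24.6 to 40.5%) outside all of these. The intervals cover counting error only, and sites are not replicates of a condition.

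The near gains were divided in a similar way, with 4.45% at promoters, 16.8% in exons, 38.2% in introns, 13.6% in lncRNA genes and 26.96% outside. The intervals covered in all 4 lists differed from both, with 10.8% at promoters and 30.2% in exons, although they were also wider, with a median of 1919 bp. The autosomal windows had 2.04% at promoters, 8.87% in exons, 35.5% in introns and 38.2% outside genes. In the shares of promoters and exons, new sites were closer to the windows than to the intervals that all 4 libraries shared. The rule keeps new sites over 2 kb from siControl peaks, whereas shared intervals lie under such peaks and the windows were not restricted. These shares, and the base composition given below, are therefore not independent of the rule. The distance to the nearest coding start ranked the sets as the promoter and exon shares did. Its medians were 43.3 kb for new sites, 37.5 kb for near gains, 22.0 kb for shared intervals and 89.3 kb for windows. By this measure new sites were nearer to the shared intervals than to the windows. A coding start lay within 10 kb of 29 new sites, and 33 had none within 100 kb.

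**Figure D3:**
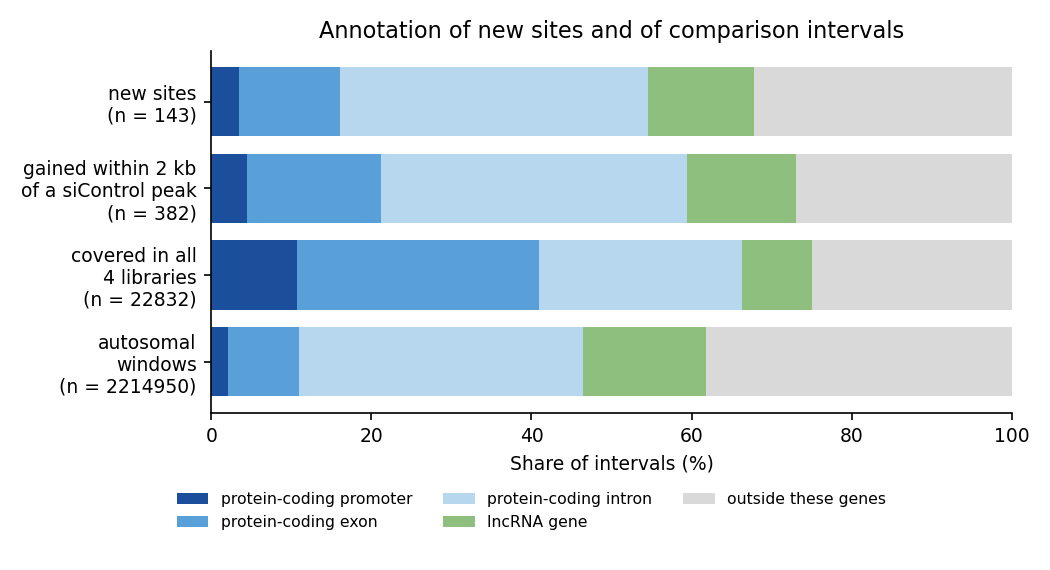
Share of intervals (%) by annotation, ranked promoter, exon, intron, lncRNA gene, outside, for new sites, near gains, intervals covered in all 4 libraries and autosomal windows. The promoter share is 3.50% for new sites and 10.8% for intervals covered in all 4 libraries.

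The promoter with the most bases under a new site was that of PACSIN2, which encodes a membrane-bending adaptor of endocytosis. The site, chr22:43013830-43015603, was 1774 bp wide and covered 1455 bases of the promoter. Peaks covered 0% of the promoter in both siControl replicates and 74.6% and 72.7% in siMBD6 replicates 1 and 2. The nearest siControl peak was 2056 bp away in replicate 1, just past the limit, and 6003 bp away in replicate 2.

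MPI encodes mannose phosphate isomerase, an enzyme that supplies protein glycosylation. Its site, chr15:74888932-74890287, lay mostly upstream of the start, and peaks covered 66.1% and 64.1% of the promoter in the siMBD6 replicates and 0% in both siControl replicates. BRAT1 encodes a binding partner of BRCA1 and ATM in the DNA damage response. Its site, chr7:2554777-2555968, took in the gene's start, with promoter coverage of 63.7% and 64.5% in the siMBD6 replicates and 0% in the siControl replicates. The nearest siControl peaks to the BRAT1 site were 11546 and 8538 bp away, so this site, like that at MPI, was still a new site with a 5-kb distance.

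One site, chr16:84145263-84146620, touched the promoters of neighbouring genes read in opposite directions: DNAAF1, an assembly factor for ciliary dynein, and HSDL1, a hydroxysteroid dehydrogenase-like protein. Of its 1358 bp, 1334 lay in the body of DNAAF1, 257 of them in exons, and none in that of HSDL1. Peaks covered 51.2% and 53.8% of the DNAAF1 promoter and 46.5% and 49.1% of the HSDL1 promoter in the siMBD6 replicates. In siControl cells both promoters were at 0%, yet 28.1% and 26.7% of the DNAAF1 body was already under peaks. CLEC19A, a C-type lectin family gene, had promoter coverage of 50.6% and 56.7% in the siMBD6 replicates from the site chr16:19285542-19286554, and 0% in siControl. At all 6 promoters the groups did not overlap, as the rule requires of them.

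**Figure D4:**
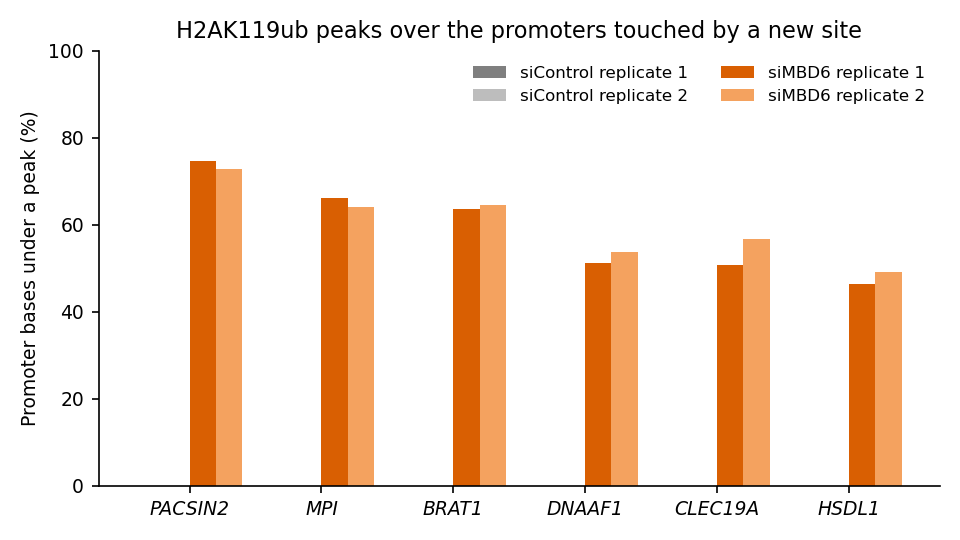
Share of promoter bases under an H2AK119ub peak (%) at the 6 promoters touched by a new site, 1 bar per library. The siControl bars are at 0 because the rule excludes control peaks there, and the siMBD6 bars range from 46.5 to 74.6%.

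The MBD6 gene itself was not among the sites. Both siMBD6 lists covered a stretch of its promoter, chr12:57520102-57520602, that has the commonest peak width and is below the 1-kb minimum, and the nearest siControl peaks were 3083 and 2664 bp away. The MBD6 promoter was covered over 0% and 0% in the siControl replicates and 25.04% and 40.8% in the siMBD6 replicates, while peaks over the gene body took up 15.7% and 19.9% of its bases for the siControl replicates against 14.4% and 15.9% for siMBD6.

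The 6 widest sites lay inside genes. BCAR3, an adaptor of integrin and Src signalling, held the widest, chr1:93606526-93608983, 2458 bp in an intron that the antisense lncRNA BCAR3-AS1 also spans. The peaks there were 3811 and 2618 bp wide in the siMBD6 replicates, and the nearest siControl peaks were 5267 and 4739 bp away. The second, chr16:28640166-28642480, was 2315 bp wide in NPIPB8, a member of a primate gene family spread by segmental duplication. Of its 31-mers, 79.4% occur more than once in hg38, with a median of 8 copies, so its reads could have come from other copies and its position is uncertain.

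The third, chr16:70156530-70158783, was 2254 bp wide and lay wholly in an exon of PDPR, the regulatory subunit of pyruvate dehydrogenase phosphatase, over 347 coding bases and untranslated sequence downstream of them. None of its 31-mers was repeated. TRIM14, an adaptor of antiviral signalling at mitochondria, held the fourth at chr9:98095235-98097473, 2239 bp wide and 31120 and 20944 bp from the nearest siControl peaks. ANXA6, a calcium-dependent phospholipid-binding annexin, held the fifth at chr5:151108264-151110474, 2211 bp wide. ANXA6 was well covered before, with 27.2% and 29.9% of its body under peaks in the siControl replicates and 50.9% and 47.7% in the siMBD6 replicates.

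The sixth, chr2:6957936-6959947, was 2012 bp wide in RNF144A, an E3 ubiquitin ligase, and 15564 and 15405 bp from the nearest siControl peaks. The other 4 of the 10 widest measured 1803 to 1873 bp. They lay at chr21:43782947-43784819 over the pseudogene TMEM97P1, at chr15:74996330-74998170 in SCAMP5, a protein of secretory vesicles, at chr17:73863741-73865568 outside genes, and at chr11:71237010-71238812 in SHANK2, a scaffold of excitatory synapses.

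In all, 78 sites lay in the bodies of 79 protein-coding genes (0.413% of 19111). Of these, 78 genes held 1 site each, and LRRK1, a leucine-rich repeat kinase, held 2. The sites in LRRK1, chr15:100958497-100959700 and chr15:101008167-101009382, were 1204 and 1216 bp wide and lay 25646 and 25312 bp, and 3247 and 3746 bp, from siControl peaks of replicates 1 and 2. LRRK1 peaks covered 16.8% and 15.1% of the body in siControl and 24.5% and 26.8% in siMBD6 cells.

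The host genes were long, with a median of 135.4 kb against 27.9 kb for all coding genes, and 63 of 79 (79.7%) were over 50 kb against 34.1%. Most also had some of the mark in control cells, more often in the body than at the promoter. At 29 of the 79 (36.7%) the promoter was touched by a peak in both siControl lists. This held for 28.1% of all coding genes and 18.2% of those over 50 kb. At 36 (45.6%) neither siControl list had a promoter peak, against 57.5% of all coding genes and 68.0% of those over 50 kb. Only 2 of the 79 (2.53%), NPIPB8 and TNFAIP1, had no base of the body under a siControl peak, against 40.7% of all coding genes and 40.8% of those over 50 kb. The median covered share of the body was 8.43% and 10.1% in siControl and 16.8% and 18.5% in siMBD6 replicates 1 and 2, while for all coding genes over 50 kb it was 0.251%, 0.231%, 0.552% and 0.590%. The siMBD6 shares of host genes include the new sites by which these genes were chosen, so the choice itself raises them. The same holds for the body shares given for single host genes. Apart from NPIPB8 and TNFAIP1, each host gene had at least part of its body under a peak of 1 or both siControl lists. In siControl replicates 1 and 2 that part could be small or absent from 1 list. It was 0% and 1.00% at TRIM14, 0% and 0.551% at IGF2BP2, 4.10% and 0% at MPI, and 0.212% and 0.352% at PARD3.

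The gene lists, which range from Polycomb targets to ribosomal, keratin and olfactory receptor genes, held few sites. Across 28 gene lists that held 2686 coding genes, 7 genes (0.261%) had a new site in the body and 0 had one at the promoter, beside 0.413% of all coding genes for the body, a difference of a few genes from which nothing can be read about any class. None of the 266 developmental transcription factor genes, 541 C2H2 zinc finger genes, 95 cadherin and protocadherin genes or 25 imprinted genes held a site. The same was true of the 22 PRC1, 11 PRC2 and 14 PR-DUB and H2A deubiquitinase genes. At the share found among all coding genes, lists of these sizes would hold few genes or none.

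The 7 genes came from 6 lists. Of 121 voltage-gated ion channel genes, CACNA1A, the pore-forming subunit of a presynaptic calcium channel, and CACNG2, an auxiliary subunit that also traffics glutamate receptors, held a site. CACNG2 peaks covered 11.8% and 11.9% of the body in siControl and 23.4% and 25.3% in siMBD6 cells. RUNX1, a transcription factor of definitive haematopoiesis, was 1 of 24 erythroid and megakaryocytic regulators. Its site, chr21:34991075-34992429, was 1355 bp wide in an intron and lay 2087 and 2144 bp from siControl peaks, close to the limit.

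IL2RA encodes the alpha chain of the interleukin-2 receptor, and its site, chr10:6011497-6012779, lay wholly in untranslated sequence. Peaks covered 21.0% and 21.9% of the IL2RA body in siControl and 33.2% and 32.5% in siMBD6 cells. BMP6, a ligand of the TGFβ family, had the site with the fewest CpGs per kb, 3.51, at chr6:7794254-7795676. COL15A1, a basement membrane collagen, and SLC46A2, a solute carrier whose site also lay in SNX30, held the remaining 2 sites, 1074 and 1275 bp wide.

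The sites were scattered. They fell into 138 windows of 500 kb, 133 of which held 1 site and 5 of which held 2. The 5 were on chromosome 15 (MPI and SCAMP5, MAN2A2 and UNC45A, and LRRK1 and PCSK6), chromosome 20 (between genes) and chromosome 8 (NUGGC and PNOC). Chromosome 2 held the most sites, 16, while per 100 Mb of known sequence chromosome 20 held the most, 17.2, and chromosome 1 held 3.04. Chromosome 15 held 6.99% of the new sites and 1.71% of the intervals covered in all 4 lists, and chromosome 1 held 4.895% and 16.1%. Other chromosomes differed too, such as chromosome 20 with 7.69% and 3.57%. The copy number of chromosomes in K562 cells was not taken into account.

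Of the 5 sites over 50 kb from any siControl peak, 1 lay in a coding gene. The farthest, chr20:16637882-16639125, was 814560 and 796423 bp from siControl peaks of replicates 1 and 2, and its peaks were 1362 and 1397 bp wide in the siMBD6 replicates. It touched no coding or lncRNA gene, and none of its 31-mers was repeated. The next were chr1:70752766-70754174 in LINC01788, 265378 and 292387 bp away, and chr4:84244345-84245849 in LINC02994, 250735 and 250667 bp away. IGF2BP2, an RNA-binding protein of the insulin-like growth factor 2 mRNA, held a site of 1313 bp at chr3:185645821-185647133, 59485 and 59357 bp away. The other, chr7:22414305-22415382, was 59994 and 148226 bp away and outside genes.

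The sites were richer in GC than the genome at large and poorer than the H2AK119ub that all 4 libraries shared. Their median GC content was 52.0% (order-statistic 95% interval 51.1 to 52.7%), with a range of 43.8 to 68.3%. Near gains had a median of 52.1%, intervals covered in all 4 lists 57.0% and autosomal windows 39.8%. The median ratio of observed to expected CpG was 0.204 (0.190 to 0.221) for new sites, 0.231 for near gains, 0.252 for intervals covered in all 4 lists and 0.192 for windows. New sites held a median of 13.1 CpGs per kb, against 20.1 in shared intervals and 7.23 in windows. The intervals around the GC and CpG medians treat the sites as independent and leave out differences between libraries.

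Promoter sites accounted for the top of the range. A ratio above 0.6 was found at 3 sites, those at PACSIN2 (0.731), BRAT1 (0.646) and DNAAF1 and HSDL1 (0.605), whereas the CLEC19A site had the lowest ratio of all, 0.0534. A window of 200 bp with the composition of a CpG island (GC of 50% or more and a ratio of 0.6 or more) was present in 33 new sites (23.1%), in 27.2% of near gains, in 48.9% of 1142 shared intervals and in 15.2% of 1108 windows. Shared intervals were wider and so had more room for such a window.

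**Figure D5:**
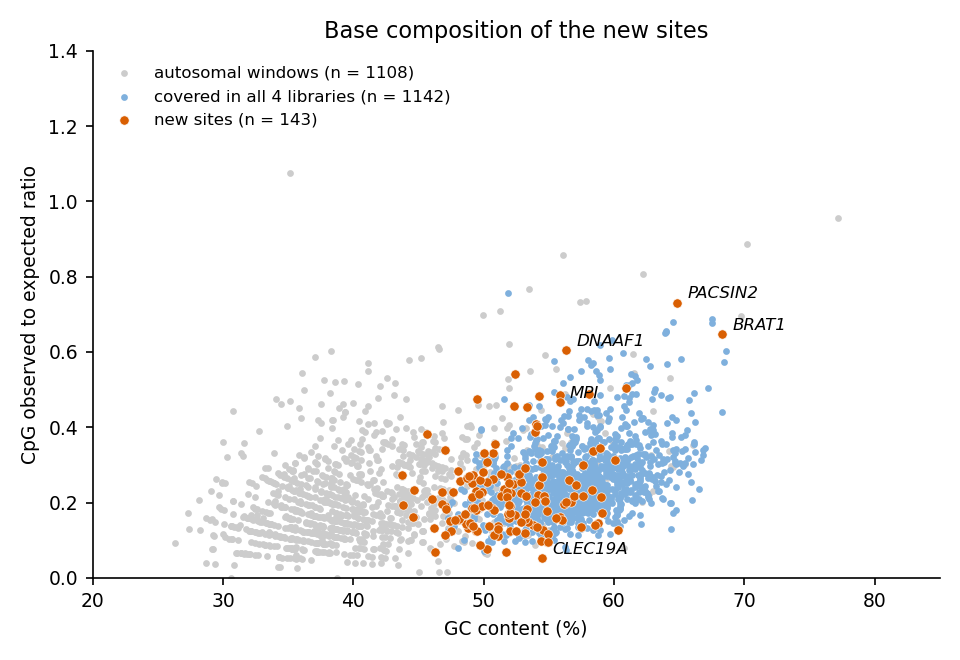
Observed to expected CpG ratio against GC content (%), 1 point per interval, for the 143 new sites, 1142 of the intervals covered in all 4 libraries and 1108 autosomal windows taken at even steps. New sites lie at higher GC than most windows and at lower GC than most shared intervals, with PACSIN2, BRAT1 and DNAAF1 at the top.

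Sequence with exact copies elsewhere in hg38 was a small part of most sites. A median of 2.17% of a site's 31-mers occurred more than once in hg38, against 1.38% in near gains, 0.363% in shared intervals and 6.71% in windows. Over 50% of the 31-mers were repeated at 4 sites (2.80%), the one in NPIPB8 and those at chr4:4094942-4096348, chr9:97498219-97499617 and chr4:110281527-110282644. The share was 9.57% of windows and 1.05% of shared intervals. Only exact copies were counted and no repeat annotation was used, so the repeat content of the sites and the class of the repeats are not given.

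In mouse cells the same genes were widely marked. Of the 79 host genes, 70 had a mouse gene of the same symbol, and an H2AK119ub peak touched the promoter of 64 to 67 of them (91.4 to 95.7%) in the 4 mES libraries, where 81.3 to 82.6% of all 15136 matched genes had one. In the 4 LK libraries the range was 59 to 66 genes (84.3 to 94.3%), against 78.7 to 86.5% of all. For H3K27me3, the Polycomb mark of PRC2, the host genes gave 67.1 to 75.7% in mES and 84.3 to 88.6% in LK cells, against 43.96 to 59.3% and 72.4 to 74.9%. Genes with K562 promoter peaks in all 4 lists were at 95.2 to 95.8% for H2AK119ub in mES cells and 89.8 to 94.4% in LK cells. For H3K27me3 they were at 61.0 to 76.4% in mES and 81.3 to 84.4% in LK cells, closer to the host genes than all matched genes were. The host genes are long, and most were already marked to some extent in K562 control cells. These shares therefore describe those genes and not the new sites.

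Of the 6 promoter genes, 5 matched by symbol and CLEC19A did not. All 5 mouse promoters had H2AK119ub peaks in every mES library, and in LK cells the exception was Mpi, at 0% in Tet2 wild-type replicate 2 and 85.5% in replicate 1. Pacsin2 promoter coverage was 74.6% and 79.2% in wild-type and 71.6% and 73.4% in Tet2-knockout mES cells. Dnaaf1 and Hsdl1 carried H3K27me3 over 100% of the promoter in all 4 mES libraries, whereas Mpi had 0% in all 8 H3K27me3 libraries.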

How the data were processed

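The authors trimmed the CUT&Tag reads with Trimmomatic 0.39, aligned them with Bowtie2 2.4.1 and called peaks, and the submitters' processing notes list HOMER 4.9, whereas the study's methods name MACS2 in broad mode. Each library was deposited as its own list of peak positions on hg38 or mm10, with no score, read count or spike-in scaling, and the lists were used as deposited. The commonest peak width was 501 bp, and such peaks made up 30.4 to 35.6% of the K562 lists. Intervals of both siMBD6 lists were intersected, and human genes were taken from GENCODE v44 and mouse genes from GENCODE on mm10. On simulated lists the code returned 200 of 200 sites planted to meet the rule and 0 of 700 decoys planted to break it. That outcome checks the interval code only and says nothing about errors in real peak lists. No test between groups was run, since the rule uses the same contrast. Named were MBD6, the 10 widest sites, the promoter genes, the genes with the most sites, the densest 500-kb windows, the sites at each limit and genes of the lists, and the isolated sites, TNFAIP1 and the gene-body members of the lists were singled out after their values were seen. The members and lists were chosen with earlier results of these data known. Python 3.11.15 with numpy 2.4.6, pandas 2.3.3 and numba 0.67.0 was used. Sequence of some sites is not reported here.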

Additional observations from a re-analysis of the deposited data

Results flagged for a closer look

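Chromosome X was outside the autosomal rule, and the same rule applied to it gave 2 new sites and 0 lost sites. They were chrX:102564026-102565481, 1456 bp wide and outside coding genes, and chrX:130384497-130385538, 1042 bp wide in GPR119, a lipid-activated receptor. These 2 sites are given only because they lie in data that the autosomal comparison does not use. The intervals examined on chromosome X were not counted, so no share can be set beside them, and the difference was not tested.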

How the results depend on the processing

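No paired analysis was possible because the sites come from a rule on peak lists and not from a test. The number of new sites (143) and of lost sites (2) moved with the limits: 2405 and 72 at the commonest peak width, 6 and 0 at 2 kb, 525 and 5 with overlap alone excluded, 49 and 1 with 5 kb, and 22 and 0 with 10 kb. Joining across gaps of 1 kb gave 230 new sites. Lists cut to 91721 peaks each gave 143 new and 4 lost sites, but the cut drops narrow peaks and could scarcely change the new sites, so it says nothing about list size. Leaving out 1 library in turn, which relaxes the rule, gave 726 to 1012 new and 5 to 48 lost sites. Genes with a new site at the promoter (6) numbered 142 at the commonest peak width, 0 at 2 kb, 24 with overlap alone excluded, 2 with 5 kb, 0 with 10 kb, 10 with joining, 10 with every transcript start and 28 to 45 without 1 library. The promoter share was 0% at 2 kb and at 10 kb, and the share outside genes was 0% at 2 kb, 40.9% at 10 kb and 45.5% with coding gene bodies alone. Median GC was 53.9% at 10 kb, 51.1% with joining and 51.1 to 52.5% without 1 library. The median CpG ratio was 0.222 at 2 kb, 0.223 with overlap alone excluded, 0.183 with 5 kb and 0.155 with 10 kb. New sites outnumbered lost sites in the settings above. All of these settings use the same lists, and the siMBD6 lists cover more of the autosomes, so this is not a test of the gain. Leaving out the 4 sites of repeated sequence, an alternative chosen after seeing the data, gave 139 sites, 3.597% at promoters, 31.7% outside genes, a median GC of 52.0% and a CpG ratio of 0.204, and the 6 promoter genes were still counted.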
